A study of Mus musculus with 9 samples.

Results

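Mouse embryonic orofacial tissue of gestation day (GD) 14 was compared with the same tissue of GD13, the second of the 2 daily steps in the series. The 3 arrays titled for each of these days were chosen by their titles, 6 of the 9 arrays of the series, and all probe sets other than the array maker's controls were used. Each array carried total RNA of orofacial tissue, the embryonic region that forms the jaws, lips and palate, and gave 1 intensity per probe set, a linear brightness with no absolute unit. The 3 arrays of GD12 entered the statistical fit and are quoted where the first daily step stands beside the second. No strain, sex, treatment or dissection border is given in the labels. The labels also do not say how many embryos or litters each array represents. The p-values therefore measure the spread between these samples, which may be technical.

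During this stage of mouse development the palatal shelves, outgrowths of the upper jaw made of neural crest mesenchyme covered by epithelium, grow down beside the tongue, swing up above it and meet in the midline. In the same tissue mesenchyme condenses into the first membrane bones of the jaws, myoblasts of the tongue and jaw muscles fuse and assemble sarcomeres, and the oral epithelium forms a flat outer layer, the periderm. Blood in the tissue changes too. Primitive red cells from the yolk sac, which carry embryonic globins, are gradually outnumbered by red cells from the fetal liver, which carry adult-type globins.

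The actin control gave a 3' to 5' ratio, which reflects RNA integrity and labelling, of 2.09, 2.23 and 1.25 on the GD13 arrays and 2.44, 2.29 and 1.37 on the GD14 arrays. The third array of each day thus stood apart from the others, and values without the third arrays are given below for all genes and for some of the lists. Median intensities lay between 48.1 and 57.0 on the 6 arrays. Marker genes of orofacial tissue were present: all 17 in the marker list that the array carries were bright enough to test. Of these, 14 had a log2 difference between GD14 and GD13 below 0, with a median of -0.20. The mesenchymal factor Twist1 read 1384, 1289 and 1134 on GD13 and 1322, 1221 and 1181 on GD14, and its neighbour in that list, the homeobox factor Shox2, read 1092, 868 and 1096 on GD13 and 912, 708 and 1041 on GD14.

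Few probe sets passed the test of GD14 against GD13. Of 9326 probe sets tested in limma with Benjamini-Hochberg adjustment, 4 passed at an adjusted p under 0.05 (0.0429%). Aldh1a1, Col1a1 and Fmod rose (0.0322%), and the embryonic globin gene Hbb-y fell (0.0107%). Under quantile normalization 2 passed, 1 in each direction. At an unadjusted p under 0.05 there were 670 (7.18%), of which 416 (4.46%) were higher and 254 (2.72%) lower on GD14. The median log2 difference over all tested probe sets was -0.03. For more probe sets the days did not overlap: in 666 (7.14%) all 3 GD14 values lay above all 3 GD13 values, and in 548 (5.88%) all lay below. Such genes are called separated here, which is a description and not a test. Genes named because they were separated or differed by much were chosen after their values were seen.

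**Figure D1:**
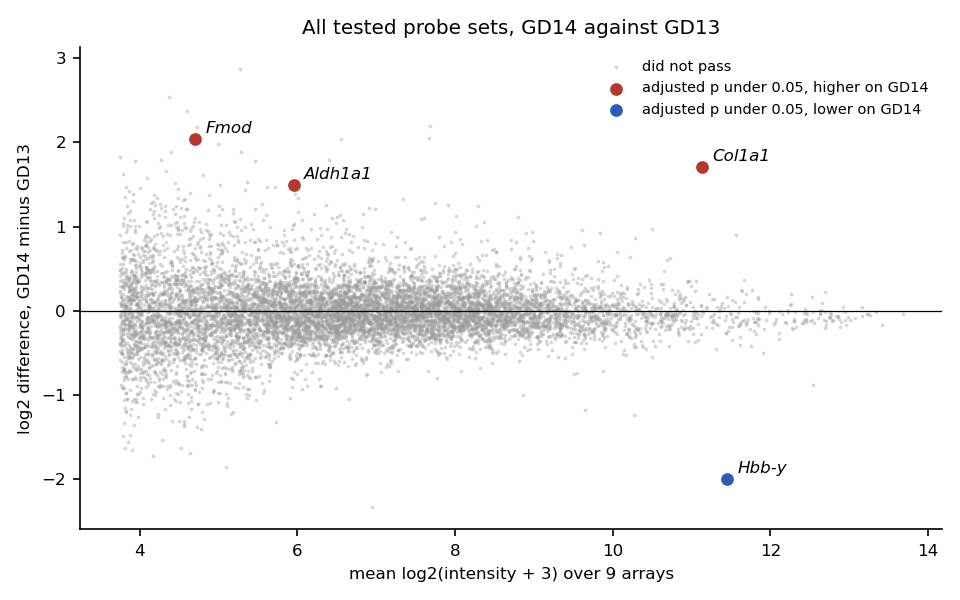
Log2 difference between GD14 and GD13 (vertical axis) against the mean log2 intensity over 9 arrays (horizontal axis, 3 added before log2), with 1 grey point for each of 9326 tested probe sets and the 4 that passed in colour. Aldh1a1, Col1a1 and Fmod lie above 0 and Hbb-y below, while differences of similar size among dim probe sets at the left did not pass.

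The 3 genes that rose were a retinoid enzyme, a collagen chain and a collagen-binding proteoglycan. Aldh1a1, a retinaldehyde dehydrogenase that makes retinoic acid, had intensities of 75.6, 72.2 and 65.5 on GD13 and 229, 185 and 204 on GD14. The arrays of each day lay close together and the days far apart. The log2 difference was 1.49 (SE 0.15), a 2.81-fold rise with an adjusted p of 0.0215 in limma. Col1a1, which encodes the main chain of type I collagen of bone, tendon and connective tissue, gave 1657, 1563 and 2278 on GD13 and 6321, 5541 and 5904 on GD14. The third array was the highest on GD13 but not on GD14, and the lowest GD14 value was well above it. Its rise was 3.27-fold (log2 1.71, SE 0.20, adjusted p = 0.0426). Fmod encodes fibromodulin, a small proteoglycan that binds collagen fibrils. It was dim on GD13 and gave 18.7, 12.3 and 25.5 on GD13 and 70.3, 79.9 and 104 on GD14. The third array was the highest of each day, and the days did not overlap. Fmod rose 4.1-fold, on a log2 scale with 3 added that understates the change of dim genes (log2 2.04, SE 0.25, adjusted p = 0.0459).

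Hbb-y, the beta-like globin of primitive red cells, had 4131, 3545 and 2994 on GD13 and 875, 733 and 1059 on GD14. The highest GD14 value was far below the lowest GD13 value. The log2 difference was -2.0 (SE 0.19, adjusted p = 0.0215). A brighter probe set of Hbb-y, whose ID marks probes shared within a gene family, read 6678, 5659.7 and 5975 on GD13 and 3402, 3013 and 3497 on GD14 and did not pass (log2 -0.88, adjusted p = 0.136). Near-identical globin genes can share signal, so the size of the Hbb-y fall is uncertain. Of the genes that rose, Col1a1 had another probe set with 719, 700.2 and 653 on GD13 and 1758, 1619.9 and 861 on GD14, which did not pass (log2 0.96, adjusted p = 0.333). A dim probe set of Aldh1a1 had the opposite sign (log2 -0.59, adjusted p = 0.841).

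The 4 calls rested on every array of GD14 and on the GD12 arrays in the fit. With only the groups compared, none of the 4 passed in limma. Adjusted p was then 0.0971 for Hbb-y and Aldh1a1, 0.107 for Col1a1 and 0.129 for Fmod. Col1a1 and Fmod also did not pass under quantile normalization, with an added value of 1 or without GD12 replicate 1. In limma 0 probe sets passed when any 1 of the GD14 arrays, GD13 replicate 1, GD13 replicate 2 or GD12 replicate 2 was left out, with 470 to 825 at an unadjusted p under 0.05. No filter on dim probe sets also left 0, with 790 at an unadjusted p under 0.05. With the replicate number as a block 6 passed. Hbb-y and Aldh1a1 (adjusted p = 0.0389 each), Hba-x, Myb and Myl4 were among them, while Col1a1 (adjusted p = 0.0825) and Fmod (adjusted p = 0.0654) were not. The log2 differences of the 4 genes kept their sign in every setting that tested them. Fmod was too dim to be tested with the filter at the median.

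Promoter sequences are shown for Hbb-y, Aldh1a1 and Fmod, 3 of the 4 genes that passed beside Col1a1, and for Hba-x, another embryonic globin gene, which did not pass. Each sequence is the 250 bases before the start listed in RefSeq (build GRCm38.p6), read 5' to 3' on the gene's strand. Hbb-y lies at chr7:103853208-103853457, minus strand, Hba-x at chr11:32276350-32276599, plus strand, Aldh1a1 at chr19:20601718-20601967, plus strand, before the more downstream of 2 listed starts, and Fmod at chr1:134037004-134037253, plus strand. Capitals mark matches to TATAAA, the core of the TATA box, and to CCAAT, the CCAAT box, with both strands searched. Of 32851 mouse promoters of this length, 12.4% held TATAAA and 33.8% held CCAAT.
Hbb-y: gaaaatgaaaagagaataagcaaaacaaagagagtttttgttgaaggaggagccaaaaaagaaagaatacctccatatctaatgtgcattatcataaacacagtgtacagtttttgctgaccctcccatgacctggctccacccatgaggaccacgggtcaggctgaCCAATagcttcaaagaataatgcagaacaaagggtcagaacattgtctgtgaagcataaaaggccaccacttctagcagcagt
Hba-x: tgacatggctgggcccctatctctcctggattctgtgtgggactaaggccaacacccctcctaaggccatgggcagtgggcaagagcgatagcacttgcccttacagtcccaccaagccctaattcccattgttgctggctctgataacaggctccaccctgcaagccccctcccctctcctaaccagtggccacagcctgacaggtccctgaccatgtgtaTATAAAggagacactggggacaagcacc
Aldh1a1: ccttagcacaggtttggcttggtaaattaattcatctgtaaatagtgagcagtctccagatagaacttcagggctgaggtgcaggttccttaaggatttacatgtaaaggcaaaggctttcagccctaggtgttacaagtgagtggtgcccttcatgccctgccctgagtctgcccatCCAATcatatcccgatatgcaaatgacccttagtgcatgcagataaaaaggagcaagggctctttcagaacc
Fmod: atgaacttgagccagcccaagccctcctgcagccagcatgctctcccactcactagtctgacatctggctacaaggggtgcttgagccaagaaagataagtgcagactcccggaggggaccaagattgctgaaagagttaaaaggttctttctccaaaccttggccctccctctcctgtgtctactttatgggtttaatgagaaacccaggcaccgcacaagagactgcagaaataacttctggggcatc
Hbb-y held CCAAT from 83 to 79 bases before its start, and Aldh1a1 held it from 72 to 68 bases before. Hba-x held TATAAA from 28 to 23 bases before its start. Neither run of letters was found in the Fmod window. The matches describe the sequences and were not related to the measured differences.

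**Figure D2:**
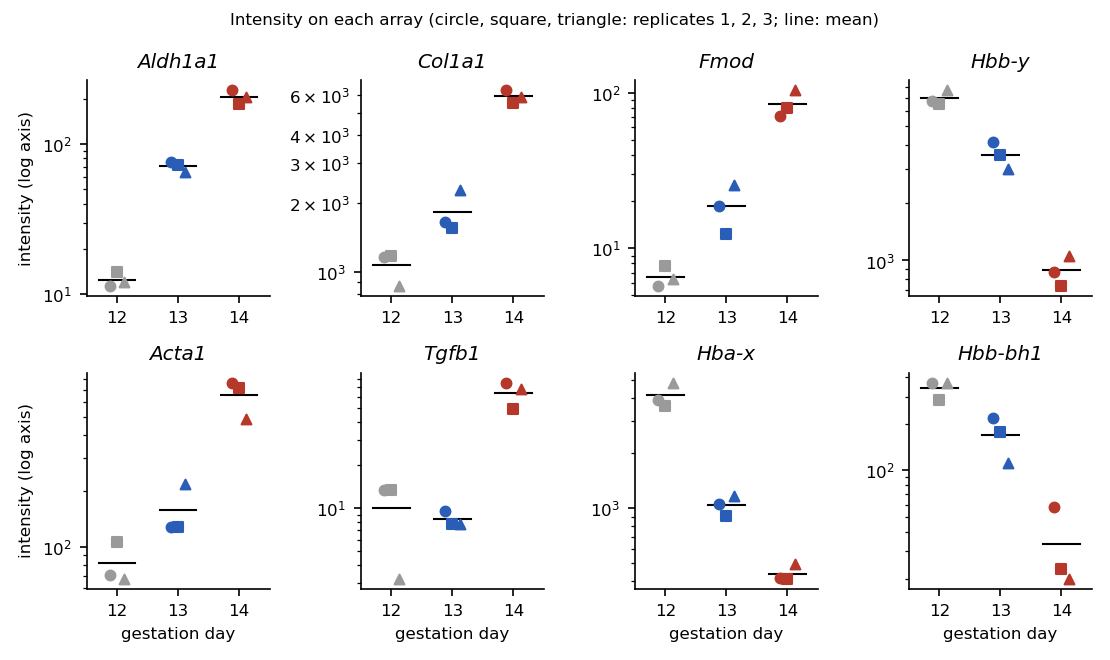
Intensity (vertical log axis, scaled for each gene) of 8 genes on every array by gestation day, with circles, squares and triangles for replicates 1, 2 and 3 and a line at the mean of each day. The upper row holds the 4 genes that passed between GD13 and GD14; the lower row holds Acta1, Tgfb1, Hba-x and Hbb-bh1, which did not pass although their GD13 and GD14 values do not overlap.

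Other genes with large differences did not pass. Acta1, the actin of skeletal muscle sarcomeres, had 128, 128 and 217 on GD13 and 766, 715 and 488 on GD14 (log2 2.05, adjusted p = 0.0806). The third array was the highest of GD13 and the lowest of GD14, and the days still did not overlap. Myb, a transcription factor of blood and epithelial progenitors, had 78.4, 71.1 and 43.0 on GD13 and 352, 273 and 196 on GD14 (log2 2.05, adjusted p = 0.0806). Tgfb1, a growth factor of the TGF-beta family, had 9.5, 7.8 and 7.8 on GD13 and 75.0, 49.1 and 67.7 on GD14. No GD13 value of Tgfb1 reached 10.4, the intensity at which dim probe sets were filtered, so that it was tested only through its GD14 values, and no difference is given. Cav1, the caveolin of membrane invaginations in endothelium and smooth muscle, had 264, 275 and 268 on GD13 and 578, 505 and 477 on GD14 (log2 0.94, adjusted p = 0.088), but a dim probe set of it showed a log2 difference of 0.02. Dmp1, an acidic protein of mineralized bone, had 16.6, 24.7 and 14.2 on GD13 and 148, 116 and 69.0 on GD14. Its GD14 values spread widely but stayed clear of GD13. On GD12 it read 0.9, 5.2 and 4.2, and on the log2 scale its mean over GD12 and GD13 lay under the filter. Dmp1 was thus also tested only through its GD14 values, and no difference is given. On the lower side Chil3, a secreted chitinase-like protein of myeloid cells, had 17.1, 28.2 and 18.9 on GD13 and 2.5, 5.1 and 7.4 on GD14, with every GD14 value under the filter intensity.

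Genes were also read in lists by function, each gene by its brightest tested probe set. Over all 6868 genes 3 passed (0.0437%), 8.04% had all GD14 values above GD13, 5.72% had all below, and the median log2 difference was -0.02. At an unadjusted p under 0.05 in limma, 5.01% were higher and 2.42% lower. Without the third arrays, where 2 values face 2, 23.1% were above and 21.4% below. Under median scaling 511 of the 6868 genes were above and 286 below, against 552 and 393 without it. Under quantile normalization 564 were above and 425 below. The log2 difference was above 0 in 3245 genes and below 0 in 3623. The counts below are read against these shares. Apart from Col1a1, Fmod and Aldh1a1, 0 genes of any list passed by their brightest probe set. In such bulk tissue fewer cells of a type and less RNA per cell cannot be told apart.

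**Figure D3:**
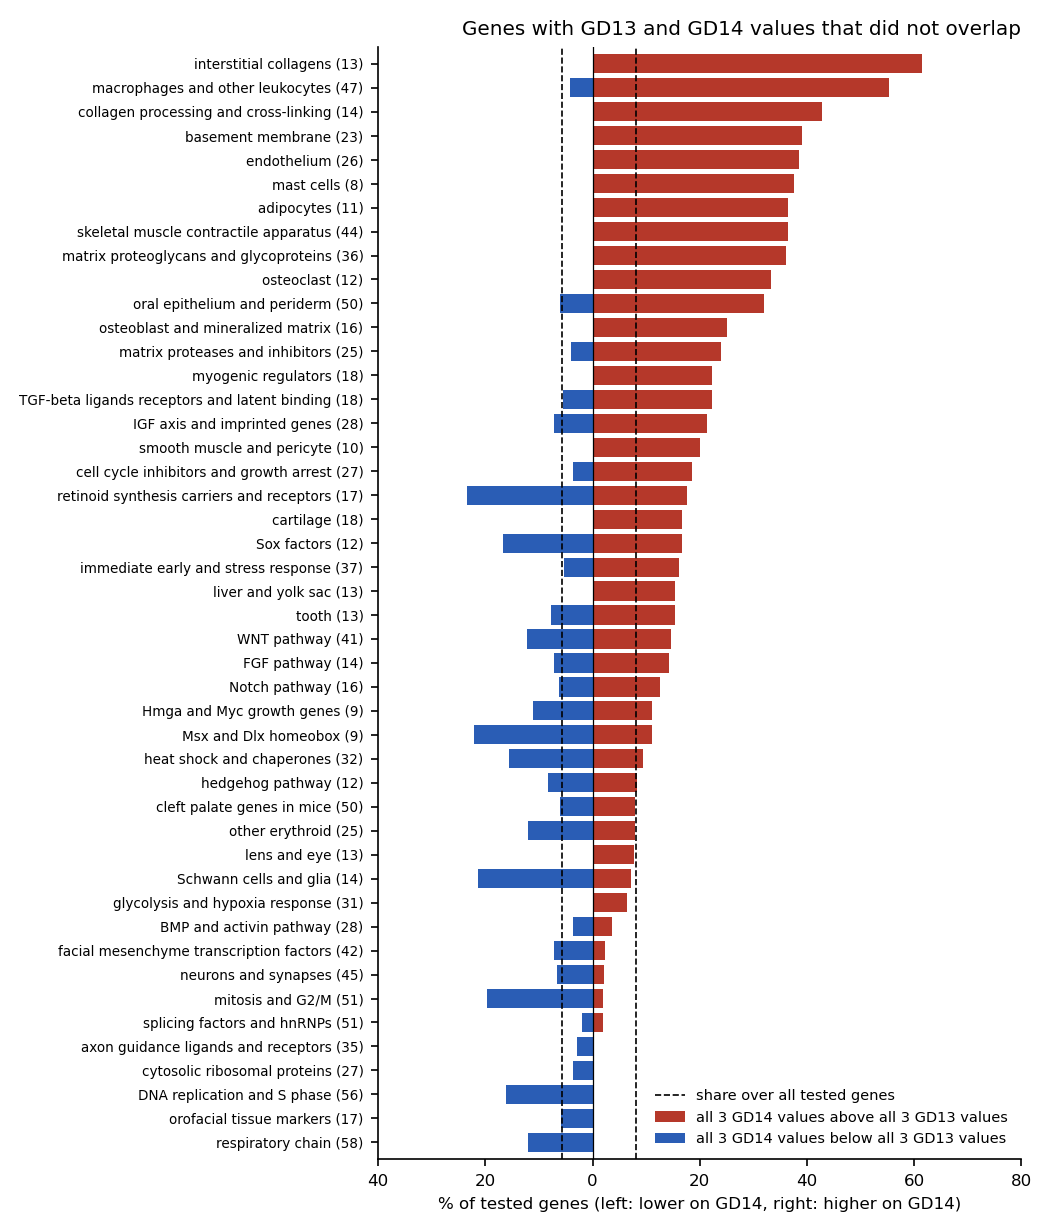
Share of the tested genes of each list (number of genes in parentheses) whose 3 GD14 values all lay above (red, to the right) or below (blue, to the left) the 3 GD13 values, for the lists with 8 or more tested genes. Dashed lines mark the shares over all 6868 genes, 8.04% above and 5.72% below; interstitial collagens and leukocyte genes reach furthest to the right.

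Genes of the fibrous matrix were mostly higher on GD14. Of 13 interstitial collagen genes, whose chains form the fibrils of connective tissue and bone, 1 rose (Col1a1) and 0 fell. The days were separated upward in 8 and downward in 0, 8 were higher and 0 lower at an unadjusted p under 0.05, and the median log2 difference was 0.53. Col1a2, the partner chain of type I collagen, had 2511, 2312 and 2906 on GD13 and 5030.4, 4523 and 4848 on GD14 (log2 0.90, adjusted p = 0.117), while a dimmer probe set gave a log2 difference of 0.05. Col5a2, a chain of the type V collagen that regulates fibril width, had 1641, 1482 and 1823 on GD13 and 2243, 2159 and 2424 on GD14. Its partner Col5a1 had 777, 924 and 1029 on GD13 and 1328, 1589 and 1053 on GD14, separated only by a small gap on the third arrays. Col6a2, a chain of the beaded type VI collagen that links cells to fibrils, had 439, 397 and 557 on GD13 and 895, 738 and 1038 on GD14. Another type VI chain, Col6a3, had 1172, 1130.2 and 1353 on GD13 and 2134, 2008 and 1588 on GD14. Col6a1 was separated too (log2 0.52), so all 3 type VI chains named here were higher on GD14. The list median was 0.57, 0.79 and 0.31 within array pairs 1, 2 and 3, each pair holding the GD13 and GD14 arrays of 1 replicate number. On the first and second arrays alone 10 above and 0 below were counted.

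Enzymes that process and cross-link collagen were separated upward in 6 of 14 genes and downward in 0 (5 were higher and 0 lower at an unadjusted p under 0.05), with a median of 0.23. Lox, lysyl oxidase, which cross-links collagen and elastin, had 239, 323 and 274 on GD13 and 782, 668 and 550.1 on GD14 (log2 1.24, adjusted p = 0.102). A dim probe set of Lox gave -0.02. Pcolce, which enhances the cleavage of procollagen, had 229, 221 and 321 on GD13 and 465, 353 and 564 on GD14. P4ha1, a subunit of the prolyl hydroxylase of collagen, had 263, 234 and 249 on GD13 and 424, 349 and 341 on GD14. Crtap, a cofactor of collagen hydroxylation, had 854, 763 and 1043 on GD13 and 1390.5, 1207 and 1405 on GD14. Serpinh1, the collagen chaperone and the brightest gene of the list, had 2444, 2372 and 2428 on GD13 and 2968, 2541 and 2826 on GD14. Without the third arrays 8 above and 0 below were counted.

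Matrix proteoglycans and glycoproteins were separated upward in 13 of 36 genes and downward in 0 (9 were higher and 0 lower at an unadjusted p under 0.05), with a median of 0.25; 1 of them, Fmod, rose. Eln, elastin of the elastic fibres, had 1438, 1608 and 1446 on GD13 and 3072, 3225 and 2568 on GD14 (log2 0.97, adjusted p = 0.315). Dcn, decorin, a small proteoglycan that sits on collagen fibrils, had 941, 959.7 and 845 on GD13 and 1669.7, 1482 and 1497 on GD14. Its relative biglycan, Bgn, had 1067, 990.0 and 1459 on GD13 and 2345, 2039 and 1955 on GD14. Both were bright and separated, though another probe set of Bgn gave a log2 difference of 0.28. Thbs2, a thrombospondin of the pericellular matrix, had 194, 163 and 205 on GD13 and 576, 392 and 284 on GD14, so that the GD14 values spread widely above GD13. Without the third arrays 21 above and 1 below were counted.

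Basement membrane genes build the sheet under epithelium and around vessels and muscle. They were separated upward in 9 of 23 genes and downward in 0 (8 were higher and 0 lower at an unadjusted p under 0.05), with a median of 0.37. Hspg2, the heparan sulfate proteoglycan perlecan, had 64.1, 29.9 and 75.7 on GD13 and 195, 188 and 187 on GD14 (log2 1.79, adjusted p = 0.331). Col4a2, a chain of the type IV collagen network, had 428, 444 and 648 on GD13 and 733, 692 and 671 on GD14. Lama4, a laminin chain of vessel walls, had 274, 218 and 294 on GD13 and 414, 418 and 386 on GD14. In Col4a2 the third GD13 array came close to the GD14 values, whereas Hspg2 and Lama4 left a wider gap. Agrn, agrin, the brightest gene of the list, overlapped (783, 820.1 and 653 on GD13 and 885, 757 and 787 on GD14). With the third arrays left out 16 above and 1 below were counted.

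Proteases and inhibitors of the matrix were separated upward in 6 of 25 genes and downward in 1 (4 were higher and 0 lower at an unadjusted p under 0.05), with a median of 0.18. Mmp12, an elastase made by macrophages, had 25.9, 34.9 and 13.3 on GD13 and 118, 99.3 and 69.3 on GD14 (log2 1.88, adjusted p = 0.222). Mmp13, a collagenase of bone and cartilage, had 46.8, 60.9 and 23.4 on GD13 and 133, 114 and 62.9 on GD14. In both the third array was the lowest of each day. The brightest members were mixed. Mmp14, a membrane-bound activator of other proteases, overlapped (975, 997 and 909 on GD13 and 810.4, 1223 and 955 on GD14), and Ctsb, a lysosomal protease, was separated (813, 796 and 886 on GD13 and 1008, 981 and 1285 on GD14).

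Bone genes were separated upward in 4 of 16 and downward in 0 (5 were higher and 0 lower at an unadjusted p under 0.05), with a median of 0.17. Beside Dmp1 these were Ibsp, Alpl and Ogn. Dmp1 was tested only through its GD14 values, so it adds no weight to these counts. Ibsp, bone sialoprotein of early mineralizing matrix, had 1353, 1287 and 898 on GD13 and 2732, 2507 and 1566 on GD14 (log2 0.92, adjusted p = 0.462). The third array was the lowest on both days, and a dimmer probe set gave a log2 difference of 0.04. Alpl, the phosphatase that frees phosphate for mineral, had 271, 278 and 317 on GD13 and 559.9, 511 and 500.4 on GD14. Ogn, a small proteoglycan of bone and connective tissue, had 489, 450.0 and 443 on GD13 and 830.1, 737 and 876 on GD14. Postn, periostin, which is the brightest gene of the list and is made by early osteoblasts and other mesenchyme, overlapped (3081, 2541 and 2549 on GD13 and 3084, 2463 and 2232 on GD14). The list thus held separated genes of mineralizing matrix beside a bright mesenchymal gene whose days overlapped. Of the 16 genes 10 had a log2 difference above 0 and 6 below. The summed intensity of the list was 7210 to 8839 on GD13 and 8641 to 12507 on GD14, ranges that overlap. The third GD14 array was the lowest of its day in 11 of the 16, against 40.6% of all genes.

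Osteoclast genes, those of bone-resorbing cells, were separated upward in 4 of 12 (median 0.28). The median was 0.51, 0.51 and -0.02 within array pairs 1, 2 and 3, so the third pair showed no rise. Ctsk, the collagen-cutting protease of these cells, had 324, 351 and 372 on GD13 and 460.4, 434 and 396 on GD14. The others were the cytokine Csf1 and the genes Csf1r and Spi1, which macrophages also express. Cartilage genes were separated upward in 3 of 18 and downward in 0 (3 were higher and 0 lower at an unadjusted p under 0.05), with a median of 0.07, which was -0.02 without GD14 replicate 2. Col11a1, a chain of the type XI collagen of cartilage fibrils, had 436, 510.2 and 489.6 on GD13 and 889, 886 and 654 on GD14. Col11a2, its partner, had 67.8, 50.6 and 40.9 on GD13 and 137, 145 and 73.2 on GD14. In both the third GD14 array was the lowest of its day, as in 12 of the 18 cartilage genes. Ihh, a signal of cartilage growth, had 53.7, 50.1 and 50.2 on GD13 and 63.9, 59.1 and 61.4 on GD14. The probe set of Col2a1, the main cartilage collagen, lay under the filter on average and was not tested.

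Contractile genes of skeletal muscle were mostly higher on GD14, and more so on the first and second arrays than on the third. Of 44 genes 38 had a log2 difference above 0, 16 were separated upward and 0 downward, 17 were higher and 1 lower at an unadjusted p under 0.05, and the median was 0.53. In the thin filament, beside Acta1, the cardiac-type actin Actc1 had 652, 674 and 801 on GD13 and 1454, 1338 and 930.1 on GD14. Tnnt1, a slow-fibre troponin, had 267, 192 and 170.0 on GD13 and 549, 480.0 and 357 on GD14, and Tnni1, its partner in the troponin complex, had 381, 384 and 365 on GD13 and 718, 666 and 526 on GD14. In all 3 the lowest GD14 value, that of the third array, was above every GD13 value. In the thick filament the light chain Myl1 had 191, 175 and 216 on GD13 and 544, 531 and 352 on GD14 (log2 1.26, adjusted p = 0.102). Myl4, an embryonic light chain, had 149.7, 157 and 98.8 on GD13 and 388, 390.0 and 252 on GD14, and another probe set of it gave -0.07 on the log2 scale. Myh3, the embryonic heavy chain, had 38.3, 36.5 and 39.8 on GD13 and 143, 109 and 41.9 on GD14, so that the third GD14 array was barely above GD13.

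The third GD14 array was the lowest of its day in 31 of the 44 muscle genes, against 40.6% of all genes. The summed intensity of the list was 9146, 8812 and 6951 on the GD14 arrays, above the 5291 to 5384 of the GD13 arrays. The list median was 0.79, 0.71 and 0.24 within array pairs 1, 2 and 3, and without the third arrays 27 above and 1 below were counted. The part of dissection or of RNA quality in this spread was not tested. Regulators of the muscle lineage were separated upward in 4 of 18 and downward in 0 (median 0.18). Their median was 0.33, 0.28 and 0.01 within array pairs 1, 2 and 3. Myod1, a factor that commits cells to muscle, had 79.9, 115 and 110.1 on GD13 and 117, 183 and 155 on GD14. Mef2d, which acts with it, had 558, 662 and 702 on GD13 and 838, 939.5 and 830.0 on GD14, and Mef2c had 38.3, 41.4 and 36.8 on GD13 and 88.3, 92.1 and 44.5 on GD14. Mstn, the growth inhibitor myostatin, had 29.6, 35.9 and 29.4 on GD13 and 40.6, 60.7 and 50.1 on GD14. In smooth muscle and pericytes 2 of 10 genes were separated upward. Acta2, the actin of smooth muscle, had 208, 144 and 167 on GD13 and 549, 430.2 and 317 on GD14 (log2 1.29, adjusted p = 0.125).

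**Figure D4:**
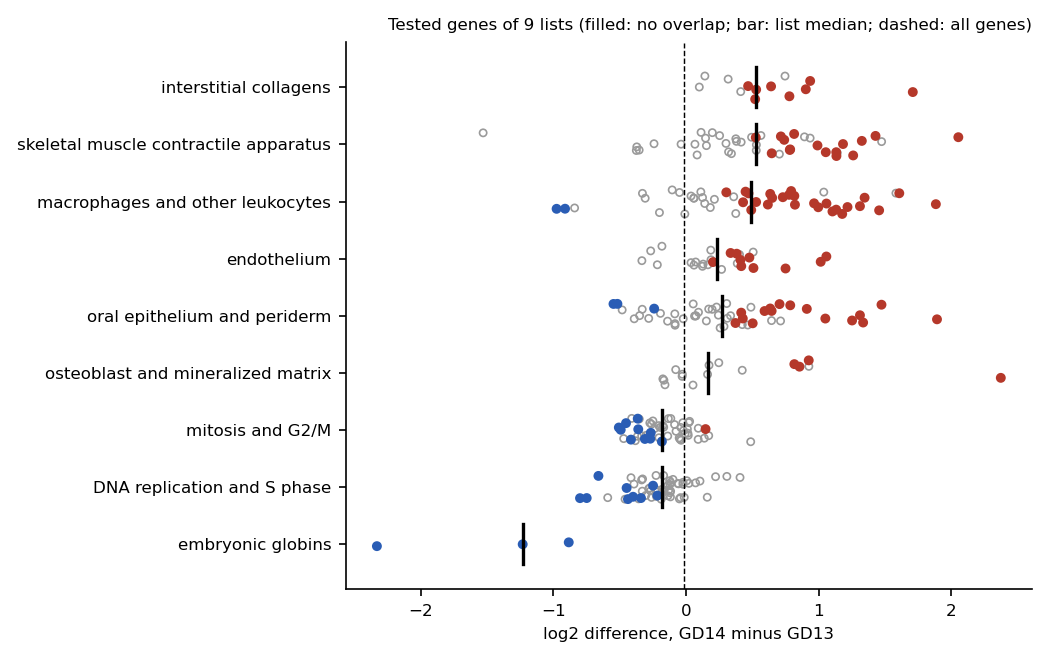
Log2 difference between GD14 and GD13 for every tested gene of 9 lists, 1 circle per gene, filled where the 3 values of the days do not overlap (red higher, blue lower on GD14) and open where they do. Black bars mark list medians, which run from 0.53 for interstitial collagens and muscle genes to -1.23 for embryonic globins, and the dashed line marks the median of all genes, -0.02.

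Epithelial genes were separated upward in 16 of 50 and downward in 3 (12 were higher and 2 lower at an unadjusted p under 0.05), with a median of 0.27. Krt6a, a keratin of periderm and stratified epithelium, had 428, 402 and 411 on GD13 and 778, 865 and 944 on GD14 (log2 1.05, adjusted p = 0.102). The 3 GD13 values lay close together, and all GD14 values were far above them. Krt19, a keratin of simple epithelium and periderm, had 66.6, 94.5 and 53.4 on GD13 and 192, 179.6 and 169 on GD14. Krt8, a simple-epithelium keratin, had 180.4, 174 and 213 on GD13 and 306, 253 and 337 on GD14. Junction genes were separated as well. Jup, the plakoglobin of desmosomes, had 91.3, 90.5 and 88.8 on GD13 and 155, 157 and 136 on GD14. Cldn7, a claudin of tight junctions, had 46.6, 46.8 and 38.6 on GD13 and 92.1, 72.1 and 70.6 on GD14. Plet1, an epithelial surface protein, was dim on GD13 and had 8.4, 9.7 and 18.9 on GD13 and 47.1, 59.7 and 48.5 on GD14 (log2 1.89, adjusted p = 0.114).

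The 3 epithelial genes separated downward were an adhesion molecule, a keratin and a transcription factor. Epcam, an adhesion molecule of epithelial cells, had 69.2, 63.1 and 62.9 on GD13 and 58.0, 52.9 and 52.9 on GD14. Krt6b, a keratin close to Krt6a in sequence, had 96.2, 94.5 and 81.8 on GD13 and 60.5, 76.3 and 52.5 on GD14. Tfap2c, a transcription factor of surface ectoderm, had 276, 302 and 368 on GD13 and 196, 203 and 243 on GD14. The 2 brightest epithelial genes overlapped between the days. Sprr1b, a protein of the cornified envelope, had 2437, 2168 and 2374 on GD13 and 2829, 2519.8 and 2046 on GD14, and the protease inhibitor Cstb had 1326, 1353 and 1149 on GD13 and 1357, 1368 and 1292 on GD14. The list median was 0.27, 0.23 and 0.20 within the array pairs, and without the third arrays 22 above and 7 below were counted.

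Leukocyte genes, many of them genes of macrophages, were mostly higher on GD14. Of 63 on the array 47 were bright enough to test; 26 were separated upward and 2 downward, 26 were higher and 0 lower at an unadjusted p under 0.05, and the median was 0.49. The complement component C1q is secreted by tissue macrophages. Its chain C1qa had 115, 89.9 and 74.5 on GD13 and 195, 168 and 196 on GD14. The chain C1qb had 47.5, 44.5 and 50.4 on GD13 and 101, 92.9 and 145 on GD14 (log2 1.18, adjusted p = 0.114), although a dim probe set of it gave -0.28. The chain C1qc had 183, 218 and 176 on GD13 and 274, 278 and 362 on GD14. Each of the 3 chains was higher on every GD14 array than on any GD13 array.

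Receptors of macrophages showed the same separation. Mrc1, the mannose receptor, had 26.5, 34.9 and 31.9 on GD13 and 79.0, 66.8 and 58.5 on GD14 (log2 1.06, adjusted p = 0.104). Csf1r, the receptor that macrophages need to survive, had 51.5, 48.2 and 54.6 on GD13 and 81.1, 92.1 and 88.5 on GD14, and a dim probe set of it gave -0.25 on the log2 scale. Among lysosomal genes the protease Ctss had 146, 150.3 and 106 on GD13 and 219, 248 and 230.0 on GD14. The glycoprotein Cd68 had 48.8, 65.8 and 62.1 on GD13 and 97.0, 78.2 and 82.6 on GD14. Among genes of antigen presentation the class II chain H2-Eb1 had 12.8, 14.6 and 18.9 on GD13 and 41.6, 73.4 and 47.5 on GD14. The invariant chain Cd74 had 65.7, 65.6 and 58.0 on GD13 and 76.7, 96.9 and 88.7 on GD14. Cyba, a subunit of the phagocyte oxidase and the brightest gene of the list, overlapped (553, 486 and 658 on GD13 and 588, 590.4 and 642 on GD14). The genes separated downward were dim. Ccl6, a chemokine, had 19.5, 34.9 and 18 on GD13 and 8.9, 17.7 and 7.9 on GD14, and the Fc receptor Fcgr3 had 25.1, 24.3 and 23.0 on GD13 and 18.4, 2.3 and 20.1 on GD14.

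Not all leukocyte markers could be read. Ptprc, the pan-leukocyte antigen CD45, the integrin Itgam and the T-cell genes Cd3e and Cd3d lay under the filter intensity on average. The summed intensity of the tested list was 2739.7 to 2966 on GD13 and 3829 to 4184 on GD14, so that the days did not overlap. The list median was 0.50, 0.54 and 0.67 within the array pairs, and without the third arrays 28 above and 2 below were counted. Mast cells, which store proteases and histamine, were separated upward in 3 of 8 genes. Hdc, the enzyme that makes histamine, had 20, 16.0 and 8.2 on GD13 and 102, 83.3 and 47.7 on GD14. Cma1, a mast cell chymase, had 28.3, 26.4 and 27.2 on GD13 and 58.3, 59.9 and 60.2 on GD14. Kit, a growth factor receptor that melanocytes also carry, had 53.4, 38.8 and 60.8 on GD13 and 70.4, 109 and 65.2 on GD14.

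Endothelial genes, which mark blood and lymph vessels, were separated upward in 10 of 26 and downward in 0 (5 were higher and 0 lower at an unadjusted p under 0.05), with a median of 0.23. Cdh5, the cadherin of vessel walls, had 223, 175 and 193 on GD13 and 289.9, 262 and 271 on GD14. Flt4, a receptor that marks lymphatic endothelium, had 52.0, 56.8 and 59.6 on GD13 and 79.1, 86.3 and 77.7 on GD14. Stab1, a scavenger receptor of sinusoidal endothelium and macrophages, had 47.5, 52.9 and 55.7 on GD13 and 94.5, 94.3 and 80.0 on GD14. All 3 were separated upward. Lyve1, the hyaluronan receptor of lymphatic vessels and some macrophages, had 18.9, 21.7 and 11.5 on GD13 and 30.7, 47.4 and 38.6 on GD14. Of the brightest members Ramp2, which pairs with the adrenomedullin receptor, was separated (426, 435 and 341 on GD13 and 587, 481 and 452 on GD14). Eng, a co-receptor of TGF-beta, overlapped (480.5, 281 and 489 on GD13 and 414, 439 and 638 on GD14). The summed intensity of the list was 2738 to 3065 on GD13 and 3375 to 3471 on GD14. Without the third arrays 17 above and 2 below were counted.

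**Figure D5:**
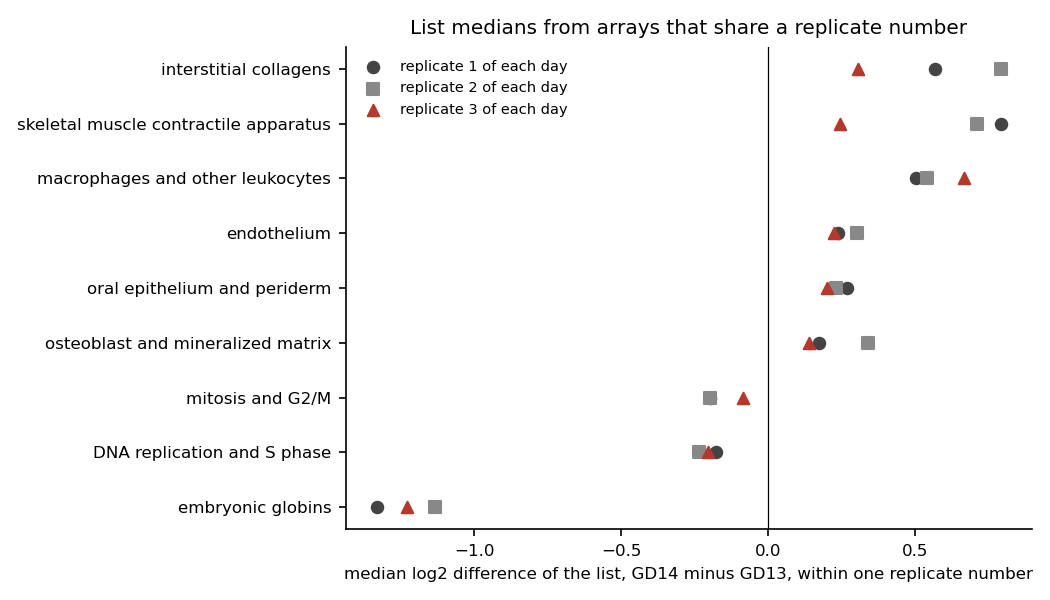
Median log2 difference of 9 lists (horizontal axis) computed from array pairs 1, 2 and 3, each pair being the GD13 and the GD14 array of the same replicate number. The third pair (red triangles) gives smaller medians than the others for interstitial collagens (0.31) and muscle (0.24), and a larger one for leukocyte genes (0.67).

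Embryonic globin genes were lower on GD14, while adult-type globins overlapped. Hba-x, the alpha-like globin of primitive red cells, had 1049.7, 903 and 1162 on GD13 and 415, 409.7 and 494 on GD14 (log2 -1.23, SE 0.18, adjusted p = 0.0806); with the replicate block it passed. Hbb-bh1, another embryonic beta-like globin, had 219, 177 and 112 on GD13 and 58.0, 23.0 and 19.8 on GD14 (log2 -2.33, adjusted p = 0.102). With the brighter probe set of Hbb-y, the 3 genes were all separated downward, with a median of -1.23 that was -1.33, -1.13 and -1.23 within the array pairs. The adult-type alpha globin Hba-a1 had 8056, 7514 and 7546 on GD13 and 7554, 6899 and 9674 on GD14 (log2 0.05). The adult-type beta globin Hbb-b2 had 4799.6, 4622 and 3784 on GD13 and 4438, 4144 and 4565 on GD14 (log2 0.00). Both took either sign over the settings tried.

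Other red cell genes showed no common direction, with 2 of 25 separated upward, 3 downward and a median of -0.03. Under median scaling 1 was separated upward and 3 downward. Epor, the erythropoietin receptor, had 63.4, 56.0 and 61.7 on GD13 and 36.5, 34.0 and 32.2 on GD14. Prdx2, an antioxidant enzyme and the brightest of the list, overlapped (3968, 3423 and 3998 on GD13 and 3144, 2702 and 4039.7 on GD14).

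Proliferation genes leaned lower on GD14 by small amounts, as did some lists outside proliferation. In the list of DNA replication and S phase 48 of 56 genes had a difference below 0, against 3623 of all 6868 genes. Below 0 were also 42 of 51 splicing factor genes, 47 of 58 respiratory chain genes and 23 of 27 ribosomal protein genes. In the replication list 9 were separated downward and 0 upward, and the median was -0.18. At an unadjusted p under 0.05 in limma 0 were higher and 6 lower. Rfc4, a subunit of the loader that places the sliding clamp on DNA, had 150.1, 129 and 142 on GD13 and 95.0, 78.9 and 74.2 on GD14. Rfc3, of the same complex, had 127, 139 and 115 on GD13 and 98.0, 95.6 and 85.2 on GD14. Orc6, of the complex that marks replication origins, had 628, 543 and 528 on GD13 and 374, 401 and 470.1 on GD14. All 3 were separated downward. Orc4, of the same origin complex, had 168, 183 and 154 on GD13 and 127, 121 and 132 on GD14. Rrm2, a subunit of the enzyme that makes deoxynucleotides, had 406, 390.5 and 406 on GD13 and 326, 277 and 348 on GD14. With the third arrays left out 3 above and 21 below were counted.

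In the list of mitosis 10 of 51 were separated downward and 1 upward, 0 were higher and 3 lower at an unadjusted p under 0.05, and the median was -0.18. Under median scaling the count separated downward was 6. Stmn1, a destabilizer of microtubules, had 3717, 3344 and 3310.3 on GD13 and 2678, 2327 and 2779.6 on GD14. Kif23, a kinesin of the dividing midzone, had 235, 196 and 218 on GD13 and 152, 147 and 158 on GD14. Cks1b, a partner of cyclin-dependent kinases, had 1616, 1662 and 1188 on GD13 and 1072, 1013 and 1143 on GD14, so that the third GD13 array came close to GD14. Inhibitors of the cell cycle leaned the other way, with 5 of 27 separated upward, 1 downward and a median of 0.15. Cdkn1a, the kinase inhibitor p21, had 121, 112 and 119 on GD13 and 227, 224 and 183 on GD14. Gas6, a ligand named for growth arrest, had 77.8, 70.4 and 86.9 on GD13 and 138, 126 and 117 on GD14. Hmga2, a chromatin protein of embryonic growth, had 406, 302 and 621 on GD13 and 187, 176 and 285 on GD14 (log2 -1.0, adjusted p = 0.404). The third array was the highest of both days, and the days did not overlap. Hmga2 did not stand for its list of 9 Hmga and Myc growth genes. In that list 7 had a difference above 0 and 2 below, with a median of 0.20, and 1 was separated in each direction.

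Transcription factors of facial mesenchyme mostly overlapped between the days. Of 42 such genes 1 (2.38%) was separated upward and 3 (7.14%) downward, and the median was -0.09. Sox11, a factor of embryonic progenitors, had 1033, 1065 and 1149.8 on GD13 and 711, 751 and 967 on GD14 (log2 -0.43, adjusted p = 0.582). Foxc2, a forkhead factor of mesenchyme, had 60.4, 55.9 and 61.7 on GD13 and 47.8, 37.9 and 37.5 on GD14, and a dim probe set of it gave 0.01 on the log2 scale. Msx1, a homeobox factor needed for palate and teeth that was counted in another list, had 678, 685 and 701 on GD13 and 550.3, 635 and 565 on GD14 (log2 -0.24, adjusted p = 0.871). Sox11, Foxc2 and Msx1 were separated downward. Dlx3, a homeobox factor of epithelium, bone and teeth that was counted with Msx1, was separated upward with 94.6, 107 and 76.6 on GD13 and 186, 183 and 158 on GD14 (log2 0.91, adjusted p = 0.331). In that list of 9 Msx and Dlx genes 1 (11.1%) was separated upward and 2 (22.2%) downward. Among the 42 genes Irx3 and Isl1 were the other separated ones. Pax9, needed for palate and tooth formation, overlapped (34.4, 36.0 and 45.2 on GD13 and 25, 30.3 and 44.7 on GD14). So did the bright mesenchymal factors: Snai2 had 2152, 2273 and 1447 on GD13 and 1659.6, 1575 and 1148 on GD14 and Six2 had 1313, 1368 and 1442 on GD13 and 1214, 1351 and 1343 on GD14.

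Among 50 genes whose loss gives cleft palate in mice 4 (8%) were separated upward and 3 (6%) downward, shares near those over all genes. The genes above were Lox, Col11a1, Tgfb3 and Bmp4, and those below were Sox11, Msx1 and Inhba.

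Signalling genes pointed both ways. In the list of TGF-beta ligands, receptors and latent binding proteins 4 of 18 were separated upward and 1 downward (3 were higher and 0 lower at an unadjusted p under 0.05), with a median of 0.11. The ligand Tgfb1, 1 of the 4, was tested only through its GD14 values, so it adds no weight to these counts. The ligand Tgfb3, which epithelium at the shelf edges needs for fusion, had 461, 460.3 and 499 on GD13 and 609, 657 and 572 on GD14 (log2 0.37, adjusted p = 0.643). Ltbp4, which stores latent ligand in the matrix, had 362, 356 and 359 on GD13 and 527, 576 and 662 on GD14. The ligand Tgfb2 overlapped (42.9, 67.5 and 43.4 on GD13 and 49.3, 53.5 and 37.9 on GD14). In the BMP and activin list 1 and 1 of 28 genes were separated upward and downward. The ligand Bmp4 was above (203, 210.1 and 164 on GD13 and 229, 236 and 218 on GD14), and the activin subunit Inhba was below (92.0, 93.2 and 97.0 on GD13 and 79.6, 90.8 and 77.6 on GD14). Both differences were small.

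WNT genes were separated upward in 6 of 41 and downward in 5 (4 were higher and 1 lower at an unadjusted p under 0.05), and under median scaling in 3 and 3. Secreted antagonists stood on both sides. Dkk1, which blocks the co-receptor, had 54.2, 58.8 and 87.2 on GD13 and 108, 142 and 91.8 on GD14. Sfrp1, which binds the ligands, had 279.9, 311 and 295 on GD13 and 414, 370.1 and 361 on GD14, and its relative Sfrp2 had 2835, 2925 and 3398 on GD13 and 3750.3, 3519 and 4524 on GD14. Frzb, of the same family, was lower (369, 359.5 and 392 on GD13 and 343, 298 and 358 on GD14). Ctnnb1, beta-catenin, the intracellular transducer, was lower as well (3959.8, 3708 and 3823 on GD13 and 3448, 2872 and 3164 on GD14). FGF genes were separated upward in 2 of 14 and downward in 1, and under median scaling in 1 and 1. The receptor Fgfr1 had 479.6, 402 and 418 on GD13 and 573, 514 and 482 on GD14. Dusp6, a phosphatase induced by FGF signalling that dampens it, had 707, 697 and 689 on GD13 and 520.0, 453 and 448 on GD14 (log2 -0.56, adjusted p = 0.331). The receptor was thus separated upward and the phosphatase downward.

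In the hedgehog list 1 of 12 was separated upward, Ihh, and 1 downward, Dhh. Shh, the ligand made by oral epithelium, varied widely within both days (18.3, 37.7 and 72.7 on GD13 and 23.1, 58.8 and 48.2 on GD14). Ptch1, its receptor and target, overlapped (407, 412 and 475 on GD13 and 406, 431 and 332 on GD14). Notch genes were separated upward in 2 of 16, the ligand Dll1 and the receptor Notch4, and downward in 1, the target gene Hey1. Under median scaling the upward and downward counts were 0 and 1 for hedgehog genes and 1 and 0 for Notch genes.

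Retinoid genes had no common direction. Of 17 genes 1 rose (Aldh1a1), 3 were separated upward and 4 downward, and 2 were higher and 3 lower at an unadjusted p under 0.05. The synthesis enzyme Aldh1a3 had 30.9, 30.4 and 35.7 on GD13 and 74.5, 56.1 and 39.5 on GD14, with the third GD14 array close to GD13. The synthesis enzyme Aldh1a2 was lower, with 92.4, 101 and 81.7 on GD13 and 70.5, 59.0 and 63.0 on GD14 (log2 -0.49, adjusted p = 0.448). The 3 synthesis enzymes thus did not share a direction. Crabp1, a carrier of retinoic acid inside cells, had 1058, 912 and 821 on GD13 and 613, 464 and 579 on GD14 (log2 -0.75, adjusted p = 0.333). Crabp2, a related carrier, had 838, 719.7 and 620.2 on GD13 and 583, 473 and 429.5 on GD14 (log2 -0.55, adjusted p = 0.459). Both carriers were lower on every GD14 array. Rbp4, the retinol carrier of plasma, had 67.6, 38.8 and 51.9 on GD13 and 85.8, 100 and 78.6 on GD14.

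Nerve and glial genes, which mark other cells of the tissue, gave small counts in both directions. Of 45 neuronal genes 1 was above and 3 below (median -0.15), and the summed intensity was 3753 to 5541 on GD13 and 3325 to 4464 on GD14, ranges that overlap. Nnat, an imprinted gene of neural tissue, had 1104, 1088 and 626 on GD13 and 418, 376 and 405 on GD14 (log2 -1.18, adjusted p = 0.222). Tubb3, the neuronal tubulin, overlapped (853, 777 and 751 on GD13 and 680.4, 546 and 761 on GD14). Of 14 glial genes 1 was above and 3 below, but 3 were above and 3 below under median scaling, and 3 and 3 under quantile normalization. The Schwann cell receptor Erbb3 was above (147, 152 and 142 on GD13 and 172, 176 and 193 on GD14). The endothelin receptor Ednrb of crest-derived glia and melanocytes was below (16.1, 24.2 and 26.1 on GD13 and 4.7, 11.7 and 7.4 on GD14).

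The second daily step was set beside the first, from GD12 to GD13, which shares the GD13 arrays. In the first step 60 probe sets (0.643%) passed. In the limma test of the difference between the steps 0 of 9326 passed (0%), and 453 (4.86%) had an unadjusted p under 0.05. The smallest adjusted p belonged to Krt17, a keratin of stratified epithelium and periderm, with a log2 difference of 2.30 in the first step and -0.02 in the second (adjusted p = 0.135). This was not the brightest probe set of Krt17. A brighter one gave -0.40 to 0.15 in the second step with 1 array left out. Ibsp had 4.79 and 0.92 (adjusted p = 0.200). The chemokine Ccl9 had 2.41 and 0.06 (adjusted p = 0.231). Its GD12 values of 7.6, 5.6 and 6 all lay under the filter intensity, so the size of its first step is uncertain. The secreted lectin Clec11a, a growth factor of bone and blood progenitors, had 2.09 and 0.44 (adjusted p = 0.231). In these 4 genes the first step was the larger. Cd86, a costimulatory protein of antigen-presenting cells, had opposite signs, -1.44 and then 1.12 (adjusted p = 0.313). Myh9, a nonmuscle myosin, had -0.55 and then 0.73 (adjusted p = 0.693).

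Genes that passed in the second step had the same sign in the first. Aldh1a1 had log2 differences of 2.26 in the first step and 1.49 in the second, Col1a1 0.78 and 1.71, Fmod 1.14 and 2.04, and Hbb-y -0.98 and -2.0. Of these, Aldh1a1 passed in the first step (adjusted p = 0.000402). Fmod read 5.7, 7.7 and 6.4 on GD12, all under the filter intensity, so the size of its first step is uncertain. The median of interstitial collagens was 0.42 in the first step and 0.53 in the second, and that of muscle genes was 0.31 and 0.53. For basement membrane genes the medians were -0.02 and 0.37, and for leukocyte genes 0.24 and 0.49. Epithelial genes had 0.44 and 0.27, endothelial genes -0.01 and 0.23, and embryonic globins -1.04 and -1.23. Whether list medians differed between the steps was not tested.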

How the data were processed

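Total RNA of mouse orofacial tissue was measured on 1-colour oligonucleotide arrays, 3 for each of GD12, GD13 and GD14, grouped by sample title. The authors deposited 1 intensity per probe set and array, on a linear scale. Trimmed mean intensities were 150.1 on all 9 arrays; the software and scaling behind them are not given in the sources used here. Dim values have the largest relative error, and no depth exists for arrays, so their number limits the precision. Probe sets were named from GEO's platform annotation: of 12422 non-control probe sets 10833 had 1 symbol, 396 several and 1193 none.

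Values were used as log2(intensity + 3). Probe sets were kept where the mean over 9 arrays lay above the 25th percentile (intensity 10.4), which left 9326. The test was limma 3.58.1 in R 4.3.3 with 1 mean per day over all 9 arrays and Benjamini-Hochberg adjustment over all 9326. A gene in a list was read by its brightest tested probe set. Members and lists were chosen with earlier results of these data known. Named genes were those that passed, fixed genes of palate, bone, muscle and blood, up to 2 of the brightest of a list without calls, and those of smallest adjusted p for the step difference. Genes named for separation or size were added after their values were seen. Residuals of arrays with the same replicate number correlated at 0.189 to 0.419, and those of different numbers at -0.287 to -0.017, so the numbers pair the arrays across days. The labels do not say what a number stands for. Alternatives covered normalization, the added value, the filter, the variance model, array weights, the replicate block, the actin ratio as a covariate and omitted arrays.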

Additional observations from a re-analysis of the deposited data

How the results depend on the processing

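The number of probe sets that passed between GD13 and GD14, 4 in the analysis reported, was 2 with quantile normalization, 2 with an added value of 1, 16 with an added value of 11, 0 with no filter, 19 with the filter at the median, 26 with trend and robust variances, 11 with array weights, 2 with only the groups compared and 0 without the third array of every day. Of the 2 that passed with only the groups compared, 0 were shared with the 4. Leaving out 1 array gave 0 to 4. The pairing of arrays by replicate number, as a block, gave 6, of which 2 were shared with the 4, and the actin ratio as a covariate and median scaling gave 4 and 5. Over the settings with 0 calls, 470 to 964 probe sets had an unadjusted p under 0.05. The cause of these shifts was not tested. The step difference, with 0 calls, gave 2 with the filter at the median, 2 with trend and robust variances, 1 with array weights and 1 with the replicate block; over the 16 settings with 0, 288 to 911 had an unadjusted p under 0.05.

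Of 3134 log2 values for 151 probe sets of named genes under 21 alternatives, 29 reversed, all in genes whose days overlapped. With 1 array left out the ranges were -0.078 to 0.21 for Ccl9, -0.00060 to 0.12 for Cstb, -0.093 to 0.15 for Hba-a1, -0.11 to 0.066 for Hbb-b2, -0.40 to 0.15 for a brighter probe set of Krt17 than the one reported, -0.12 to 0.17 for Mmp14, -0.21 to 0.023 for Postn, -0.35 to 0.56 for Shh, -0.033 to 0.20 for Sprr1b, -0.21 to 0.099 for Tgfb2 and -0.11 to 0.036 for Twist1. Array weights gave -0.025 for Hba-a1, -0.063 for Hbb-b2 and -0.030 for Mmp14. The actin covariate gave -0.021 for Hbb-b2 and 0.030 for that Krt17 probe set. Without the third array of every day the values were -0.11 for Hba-a1, -0.14 for Hbb-b2 and 0.030 for Ptch1. Of 50 list medians, 19 changed sign in some setting, cartilage and cleft palate genes among them. The 4 log2 values that passed kept their direction in every setting that tested them, which for Fmod leaves out the filter at the median. Counts of separated genes under other scaling, and without the third arrays, were added after seeing the data.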

Other observations

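Gene groups outside the account above gave further values for GD14 against GD13, named after their values were seen. Adipocyte genes were separated upward in 4 of 11 and downward in 0 (2 were higher and 0 lower at an unadjusted p under 0.05). Lpl, the lipase that frees fatty acids from lipoproteins, had 26.2, 26.4 and 33.9 on GD13 and 55.4, 55.3 and 47.6 on GD14, while a dimmer probe set of it overlapped (log2 -0.27). Car3, a carbonic anhydrase of fat and muscle, had 68.7, 61.4 and 62.4 on GD13 and 119.8, 157 and 119.5 on GD14. Stress and immediate early genes were separated upward in 6 of 37 and downward in 2. Mt1, a metal-binding metallothionein, had 98.8, 98.4 and 78.9 on GD13 and 202, 182 and 167 on GD14 (log2 0.98, adjusted p = 0.173 in limma). Imprinted genes and the IGF axis were separated upward in 6 of 28 and downward in 2. Dlk1, an imprinted surface protein of progenitor cells, had 1671, 1598 and 1659 on GD13 and 3085, 2789 and 1909.6 on GD14, and the imprinted RNA gene Meg3 had 604, 557 and 686 on GD13 and 1073, 894 and 957 on GD14. In each of these groups more genes were separated upward than downward.

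Genes of cell metabolism and RNA handling showed small differences. Respiratory chain genes were separated downward in 7 of 58 and upward in 0, with a median log2 difference of -0.11 that was -0.19, -0.20 and 0.03 within array pairs 1, 2 and 3. Without the third arrays 3 above and 35 below were counted. Ndufv2, a subunit of complex I, had 1140.2, 1075 and 965 on GD13 and 921, 774 and 844 on GD14. Heat shock and chaperone genes were separated upward in 3 of 32 and downward in 5, and under median scaling in 2 and 1. Splicing factors had 1 above and 1 below of 51 with a median of -0.17, and without the third arrays 3 above and 14 below. Ribosomal protein genes had 0 above and 1 below of 27, and without the third arrays 0 above and 19 below. The median of the ribosomal list was -0.19, -0.22 and 0.19 within the array pairs, so the third pair had the opposite sign.

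Among probe sets that the annotation ties to several genes or to none, the largest differences were upward, in probe sets 95641_at and 97519_at. The first, listed with several symbols, had 15, 18 and 13.0 on GD13 and 156, 131 and 108 on GD14 (log2 2.87, adjusted p = 0.0899 in limma). The second, without a symbol, had 413, 369.7 and 193 on GD13 and 1850.1, 1663 and 940.3 on GD14 (log2 2.19, adjusted p = 0.112). Its log2 difference in the first daily step was 4.0.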
